A study of Mus musculus with 6 samples.

Results

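The insulin-like growth factor (IGF) axis was described in MC3T3-E1 cells, an established preosteoblast line from mouse skull bone. Its members were taken by name from a list of 10 genes, which holds 2 ligands (*Igf1* and *Igf2*), 2 receptors (*Igf1r* and *Igf2r*) and 6 binding proteins (*Igfbp2* to *Igfbp7*). Of these 10 genes, 7 had a row among the 11234 genes of the expression tables. *Igf2*, *Igfbp2* and *Igfbp3* had no row and were not analysed here. RNA-seq was carried out on 3 control cultures in complete medium with 10% serum and on 3 cultures in the same medium with 100 μmol/L cyanidin-3-O-glucoside (C3G), a plant pigment of the anthocyanin class. The cells of both groups were at passage 4, carried the strain label C57BL/6, had been held in serum-free medium for 24 h, and were then cultured for 24 h with or without C3G. Nothing in the labels says how far the 3 cultures of a group are independent. The p values below therefore set group differences against the spread among these libraries alone. Because all 6 libraries come from 1 cell line, they describe that line and not bone tissue.

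IGF1 binds a receptor tyrosine kinase, IGF1R, which passes the signal to insulin receptor substrates and on to the PI3K, AKT and mTOR branch. IGF2R carries no kinase and takes IGF2 and mannose 6-phosphate tagged enzymes to lysosomes. The secreted binding proteins hold IGFs outside the cell, prolong their life and keep them from the receptor until proteases cut the binding protein. Osteoblasts make their own IGFs and several binding proteins, of which IGFBP4 is known as an inhibitor of IGF action in bone and IGFBP5 as the one that binds bone mineral. IGFBP6 prefers IGF2, and IGFBP7 binds IGFs only weakly.

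The cells carried 9 of 10 osteoblast lineage markers, with *Ibsp* as the one without a row. The summed FPKM (a fragment count scaled to the length of the gene and to the total of mapped fragments in the library) of these 9 genes was 2438 to 7543 in control libraries and 2473 to 3402 with C3G, most of it from *Col1a1* and *Col1a2*. *Sp7*, an osteoblast transcription factor, was low at 0.237 to 0.857 FPKM, as was the parathyroid hormone receptor *Pth1r* at 0.347 to 0.737. Of the markers of other cell types, 1 of 5 adipocyte, 2 of 4 chondrocyte, 1 of 4 muscle, 1 of 5 blood and macrophage and 0 of 4 endothelial genes had a row. The chondrocyte genes *Sox9* and *Col2a1* summed to 91.9 to 210.5 FPKM in control libraries and 87.8 to 111.5 with C3G. The adipocyte gene *Cebpa* had 0.798 to 3.71 FPKM in the controls and 1.00 to 1.80 with C3G. The muscle gene *Des* had 0.715 to 1.63 and 0.780 to 0.981 FPKM in the same order, and the macrophage gene *Cd68* had 0.144 to 1.08 and 0.720 to 1.25. The highest control value of the osteoblast and chondrocyte sums, of *Cebpa* and of *Des*, and the lowest of *Cd68*, was that of control replicate 1, which stood apart as described next. No gene of these lists was called between the groups.

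Control replicate 1 stood apart from the other libraries before any comparison was made. Its Pearson's r of log2(FPKM + 1) with the other 5 was 0.886 to 0.939 across genes, it had 71 genes listed at 0 against 9 to 18 elsewhere, and its departure from the other controls followed the GC content of the transcripts (Spearman's rho 0.748 over 11211 genes). In C3G replicate 1 the departure from the other treated libraries had the same sign (rho 0.631). For most genes named below the difference is also given without control replicate 1 or with replicates 2 and 3 only.

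The members differ in base composition, and the spread between libraries followed the GC content of the whole transcripts, as described further on. The coding stretches shown here are only parts of these transcripts, and the spread was not compared with them. For *Igf1*, *Igf1r*, *Igfbp6* and *Igfbp7* the middle 120 bases of the coding sequence of the longest transcript in GENCODE M21 (GRCm38) are printed. They run in the sense direction, with G and C in capitals and A and T in lower case.
Igf1: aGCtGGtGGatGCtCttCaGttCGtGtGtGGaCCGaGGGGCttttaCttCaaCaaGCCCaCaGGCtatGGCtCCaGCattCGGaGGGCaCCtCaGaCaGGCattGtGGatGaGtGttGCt
Igf1r: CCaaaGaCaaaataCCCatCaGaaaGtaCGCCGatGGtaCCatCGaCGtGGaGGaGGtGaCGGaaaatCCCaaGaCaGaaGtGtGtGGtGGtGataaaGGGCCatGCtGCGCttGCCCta
Igfbp6: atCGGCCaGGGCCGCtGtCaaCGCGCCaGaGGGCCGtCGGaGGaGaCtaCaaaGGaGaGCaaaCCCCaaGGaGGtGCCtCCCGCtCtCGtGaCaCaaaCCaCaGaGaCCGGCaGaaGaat
Igfbp7: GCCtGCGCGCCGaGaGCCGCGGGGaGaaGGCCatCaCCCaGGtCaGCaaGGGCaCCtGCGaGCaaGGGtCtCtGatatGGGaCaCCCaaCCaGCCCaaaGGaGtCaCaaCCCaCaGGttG
In these stretches 66 of 120 bases were G or C for *Igf1*, 62 for *Igf1r*, 74 for *Igfbp6* and 77 for *Igfbp7*. The same stretches of *Igf2r*, *Igfbp4* and *Igfbp5*, which are not printed, held 66, 63 and 72. *Igfbp4* thus had fewer than *Igf1* here, although the whole transcripts had the opposite order. Over the coding sequences the GC content was 51.9% for *Igf1*, 54.3% for *Igf1r*, 51.7% for *Igf2r*, 64.3% for *Igfbp4*, 60.6% for *Igfbp5*, 63.0% for *Igfbp6* and 64.0% for *Igfbp7*. Over the whole transcripts it was 38.0% for *Igf1*, 49.4% for *Igf1r*, 50.3% for *Igfbp5*, 51.2% for *Igf2r*, 55.1% for *Igfbp4*, 58.8% for *Igfbp7* and 60.7% for *Igfbp6*. The coding sequence is 459 of the 7052 bases of the *Igf1* transcript, so its low GC content lies in the untranslated part. *Igfbp5* likewise has a GC-rich coding sequence of 813 bases in a transcript of 6006.

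Among the 7 members with a row, the binding proteins *Igfbp6* and *Igfbp4* had the highest levels and *Igf1r* had the lowest. The levels of *Igf2*, *Igfbp2* and *Igfbp3* are not known here, and they have no place in this order. The mean FPKM over the 6 libraries was 195.8 for *Igfbp6*, 84.5 for *Igfbp4*, 44.5 for *Igf2r*, 35.1 for *Igf1*, 30.7 for *Igfbp7*, 24.5 for *Igfbp5* and 6.94 for *Igf1r*. FPKM is scaled for length but not for base composition, which the spread between libraries followed, so this order is that of the deposited values and the means include control replicate 1. *Igfbp6* ranked 153rd of the 11234 genes and *Igf1r* 5746th. *Igfbp6* exceeded *Igfbp4* in 6 of 6 libraries, although their ranges overlapped. All values of *Igfbp4* lay above those of *Igf2r*, and all values of *Igfbp5* lay above those of *Igf1r*. Of the 4 genes between them, *Igf2r* lay above *Igfbp5* in all values, and neighbours in the order overlapped. *Igf2r* exceeded *Igf1* in 5 of 6 libraries, *Igf1* exceeded *Igfbp7* in 4 of 6, and *Igfbp7* exceeded *Igfbp5* in 4 of 6.

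**Figure D1:**
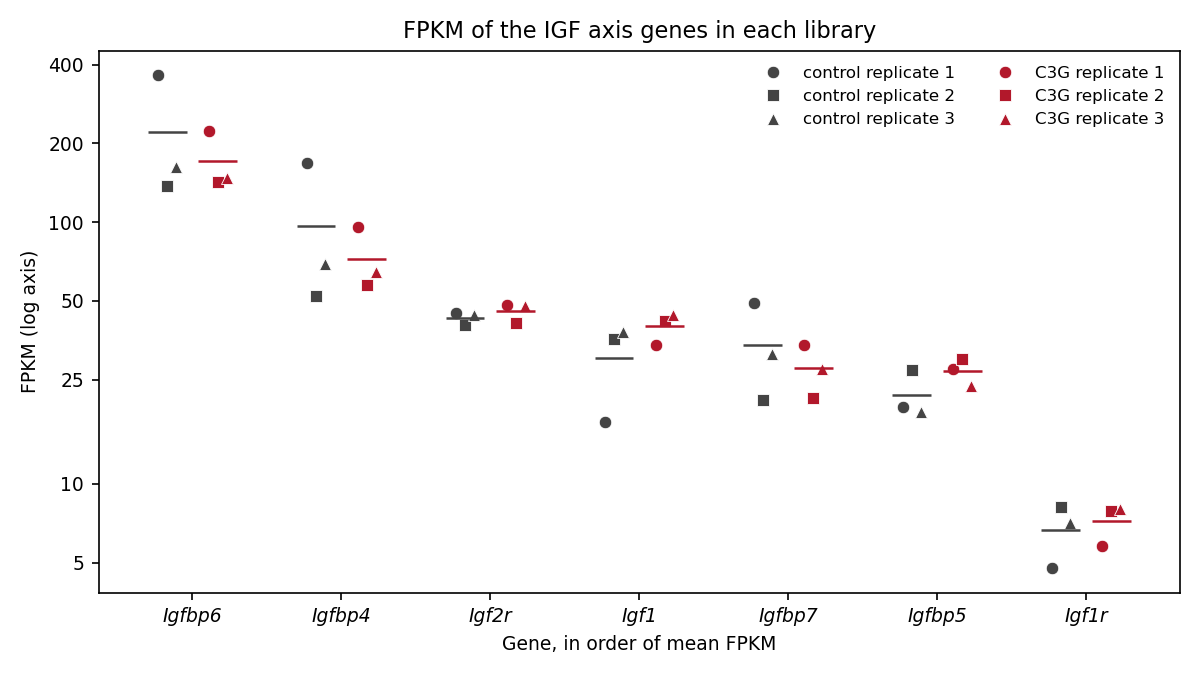
FPKM of the 7 genes (log axis) in each library, with controls in grey, C3G in red, the replicate number as the symbol and a line at each group mean (n = 3). *Igfbp6* runs from 137.6 to 363.5 and *Igf1r* from 4.76 to 8.14, and in *Igfbp4*, *Igfbp6* and *Igfbp7* the replicate 1 circle is the highest of its group.

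Whether C3G changed the level of any member was tested with limma on log2(FPKM + 1) over all 11234 genes. A gene was called at the values the study uses, an unadjusted p under 0.05 and a fold of at least 1.2. None of the 7 genes was called, against a background of 73 genes (0.650%). None had an unadjusted limma p under 0.05, where 74 of all genes had. After Benjamini-Hochberg adjustment 0 of all genes (0%) passed, and the adjusted p of each member was 0.992. The values of the groups overlapped in all 7 genes, and 452 of all genes (4.02%) had no overlap. Both shares over all genes are low, so 0 of 7 does not set the members apart from other genes. The log2 fold change was above 0 in 4 members and under 0 in 3, with a median of 0.08, beside 0.06 over all genes. These results do not show that the levels were alike, since the 95% confidence interval admits a change of 1.2-fold in either direction in 6 of the 7 genes.

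*Igf1* (ENSMUSG00000020053.18, chromosome 10 of GRCm38, 87858265 to 87937042, plus strand), the ligand, had 17.3, 35.8 and 37.9 FPKM in control replicates 1, 2 and 3. With C3G the values were 33.8, 41.9 and 44.2. Control replicate 1 was the lowest of all, and C3G replicate 1 lay under both other controls, so the groups overlapped. The group means were 30.3 ± 11.4 (SD, n = 3) in controls and 40.0 ± 5.43 (SD, n = 3) in treated cells. The log2 fold change was 0.45 (95% interval -0.29 to 1.198, standard error 0.313, limma p = 0.191, exact permutation p = 0.3, where 0.1 is the smallest p that 3 against 3 allows). Without control replicate 1 it was 0.10 (exact permutation p = 0.6). With replicates 2 and 3 only it was 0.22, with a 95% interval of 0.02 to 0.42 (limma p = 0.0393, exact permutation p = 0.333, the smallest that 2 against 2 allows). That estimate stayed under the fold of 1.2.

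*Igf1r* (ENSMUSG00000005533.10, chromosome 7, 67952827 to 68233668, plus strand), the signalling receptor, had 4.76, 8.14 and 7.09 FPKM in the controls and 5.78, 7.91 and 7.99 with C3G, in the order of the replicate numbers. Replicate 1 was the lowest library of each group. The control mean of 6.66 ± 1.73 (SD, n = 3) and the C3G mean of 7.22 ± 1.25 (SD, n = 3) differed by 0.12 on the log2 scale (95% interval -0.43 to 0.67, standard error 0.231, limma p = 0.631, exact permutation p = 0.7). Without control replicate 1 the sign turned, to -0.08 (exact permutation p = 0.8), whereas with replicates 2 and 3 only the difference was 0.06.

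*Igf2r* (ENSMUSG00000023830.13, chromosome 17, 12682406 to 12769664, minus strand), the clearance receptor, was the steadiest member, with 44.9, 40.6 and 44.0 FPKM in the controls and 48.2, 41.1 and 47.9 with C3G. No library stood out. Its means were 43.2 ± 2.27 (SD, n = 3) and 45.7 ± 4.03 (SD, n = 3), a log2 difference of 0.08 (its standard error was 0.149, limma p = 0.612, exact permutation p = 0.4) and of 0.07 with replicates 2 and 3 only. Its 95% interval, -0.27 to 0.43, was the narrowest of the 7 genes.

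*Igfbp4* (ENSMUSG00000017493.12, chromosome 11, 99041244 to 99054392, plus strand), the inhibitory binding protein, had 167.8, 52.3 and 69.1 FPKM in the controls, ordered by replicate number, and 95.9, 57.5 and 64.4 with C3G. In both groups replicate 1 was the highest library, and the C3G values lay inside the range of the controls. The means were 96.4 ± 62.4 (SD, n = 3) in controls and 72.6 ± 20.5 (SD, n = 3) with C3G, a log2 fold change of -0.26 (95% interval -1.31 to 0.80, standard error 0.442, limma p = 0.582, exact permutation p = 0.8). Without control replicate 1 it was 0.23 (exact permutation p = 0.6), and with replicates 2 and 3 only it was 0.02, so that its direction rested on 1 library. Transcripts of other genes share 0.852% of the 75-base stretches of its longest transcript.

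*Igfbp6* (ENSMUSG00000023046.6, chromosome 15, 102144362 to 102149511, plus strand) had 363.5, 137.6 and 162.4 FPKM in the controls and 222.5, 141.7 and 147.2 in treated cells. The library with the highest value was again replicate 1 in each group. The means were 221.1 ± 124 (SD, n = 3) and 170.5 ± 45.1 (SD, n = 3), and the log2 fold change was -0.27 (95% interval -1.21 to 0.67, standard error 0.395, limma p = 0.520, exact permutation p = 0.7). Leaving out control replicate 1 gave 0.16 (exact permutation p = 0.8), and replicates 2 and 3 alone gave -0.05.

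*Igfbp7* (ENSMUSG00000036256.13, chromosome 5, 77349240 to 77408041, minus strand) had 49.1, 20.96 and 31.3 FPKM in the controls and 34.0, 21.3 and 27.5 with C3G. The order of the replicate numbers, 1 then 3 then 2, was the same in both groups. The means were 33.8 ± 14.3 (SD, n = 3) and 27.6 ± 6.34 (SD, n = 3), a log2 fold change of -0.22 (95% interval -1.01 to 0.56, standard error 0.328, limma p = 0.516, exact permutation p = 0.7). This fold change was 0.08 without control replicate 1 and -0.08 with replicates 2 and 3 only. Its exons overlap those of *Polr2b* on the opposite strand. The libraries were stranded, but how strand entered the counting is not given in the sources used here.

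*Igfbp5* (ENSMUSG00000026185.8, chromosome 1, 72857932 to 72874884, minus strand), which binds bone mineral, had a Pearson's r of -0.69 to -0.47 with the other 3 binding proteins over the 6 libraries. It had 19.6, 27.3 and 18.8 FPKM in the controls and 27.5, 30.0 and 23.7 with C3G. Control replicate 2 lay among the C3G values and the other controls lay under them. From 21.9 ± 4.70 (SD, n = 3) in controls to 27.1 ± 3.20 (SD, n = 3) in treated cells the log2 difference was 0.31 (95% interval -0.16 to 0.77, standard error 0.197, limma p = 0.166, exact permutation p = 0.2). It was 0.24 without control replicate 1 and 0.22 with replicates 2 and 3 only (exact permutation p = 0.4 and 0.667).

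Same-numbered libraries of the groups departed together, so each member was also compared within the numbered pairs. *Igf1*, *Igfbp5* and *Igf2r* were higher with C3G in 3 of 3 pairs. Over all genes 14.2% were higher and 11.6% lower in every pair, and 0 members were lower in every pair. The log2 differences of *Igf1* were 0.93, 0.22 and 0.21 in pairs 1, 2 and 3, and those of *Igfbp5* were 0.47, 0.13 and 0.32. In *Igf2r* they were 0.10, 0.02 and 0.12. *Igfbp4*, *Igfbp6* and *Igfbp7* were lower with C3G in pairs 1 and 3 and higher in pair 2. When limma was fitted with a block for the replicate number, 0 members were called, against 169 of all genes (1.50%). The smallest p values in that fit were those of *Igf1* (limma p = 0.0647, 95% interval -0.04 to 0.95) and *Igfbp5* (limma p = 0.0671, 95% interval -0.03 to 0.64), and an exact permutation test within the pairs gave 0.25 for each, the smallest value 3 pairs allow. The adjusted p was 0.794 for both.

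**Figure D2:**
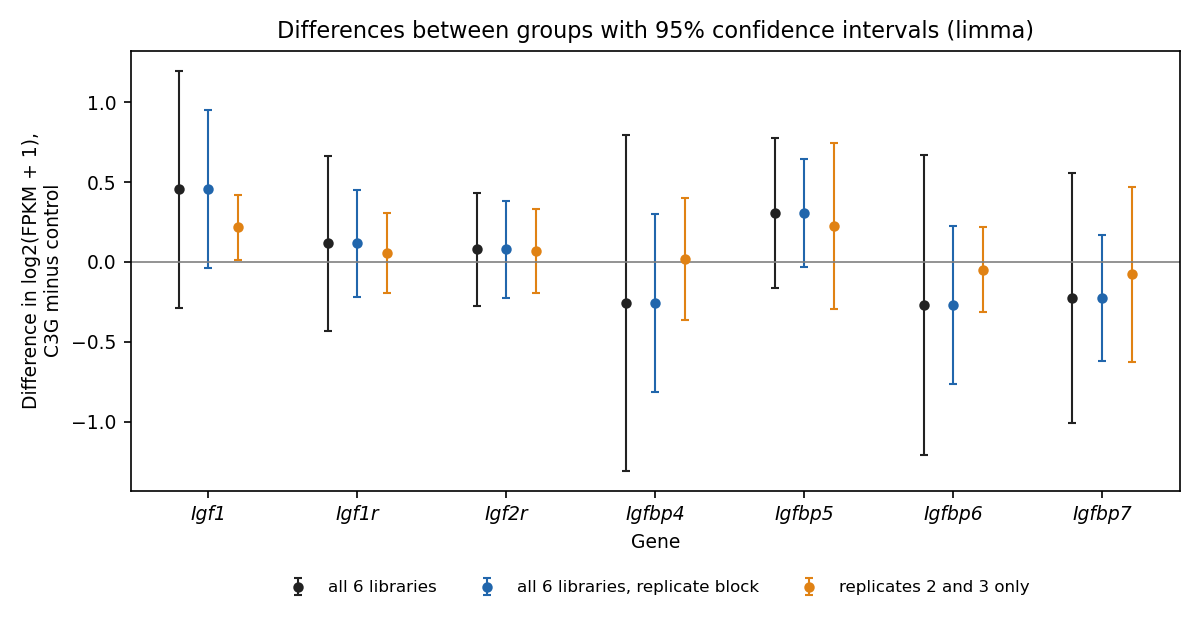
Difference in log2(FPKM + 1), C3G minus control, with limma's 95% confidence interval for all 6 libraries (black), for the same libraries with the replicate number as a block (blue) and for replicates 2 and 3 only (orange). The black interval spans 0 in every gene, and in *Igfbp4* and *Igfbp6* the orange points (0.02 and -0.05) lie near 0.

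The spread of the members between libraries had an order. In control replicate 1, *Igfbp4* was 2.76 times, *Igfbp6* 2.42 times and *Igfbp7* 1.88 times the mean of the other controls, while *Igf1* was 0.469 times and *Igf1r* 0.625 times that mean. *Igf2r* (1.06 times) and *Igfbp5* (0.853 times) lay between them. In C3G replicate 1 the departure from the other treated libraries had the same sign and was smaller for *Igfbp4* (1.57 times), *Igfbp6* (1.54 times), *Igfbp7* (1.39 times), *Igf1* (0.786 times) and *Igf1r* (0.727 times). Spearman's rho of this departure on the log2 scale with the GC content of the transcript over the 7 members was 0.893 for control replicate 1 and 0.857 for C3G replicate 1, given as a description of 7 genes from the same libraries. The part of base composition in these departures was not tested for single genes. After a correction of every library for GC content the log2 difference between the groups was -0.23 for *Igfbp4*, -0.10 for *Igfbp6* and 0.17 for *Igf1*, and no member changed direction.

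**Figure D3:**
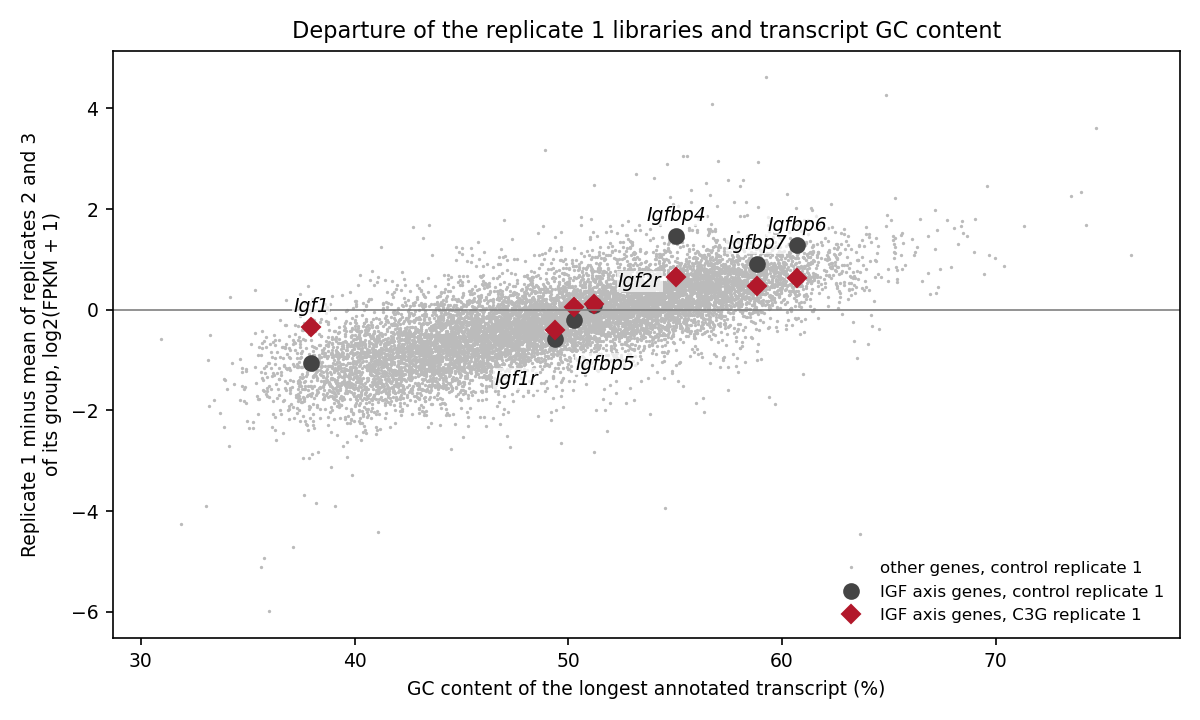
Departure of the replicate 1 libraries from the mean of replicates 2 and 3 of their group, in log2(FPKM + 1), against the GC content of the longest annotated transcript, with all 11211 genes that have a GC value in light grey for control replicate 1. The 7 members lie along the cloud of all genes, from *Igf1* at 38.0% GC and -1.05 to *Igfbp6* at 60.7% and 1.28 in control replicate 1, and the C3G points (red) lie closer to 0 in 6 of them. The largest departure in control replicate 1 is that of *Igfbp4*, 1.47 at 55.1% GC.

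Ratios within a library were steadier for genes that departed together. *Igfbp6* was 2.17 to 2.63 times *Igfbp4* in FPKM in the 6 libraries, and it was 5.19 to 7.40 times *Igfbp7*. Pearson's r of log2(FPKM + 1) over the 6 libraries was 0.995 between *Igfbp6* and *Igfbp4*, 0.884 between *Igf1* and *Igf1r*, and -0.985 between *Igf1r* and *Igfbp6*. These values are a description of 6 points that share the library departures above. The FPKM of *Igf1* was 3.63, 4.40 and 5.35 times that of its receptor *Igf1r* in control replicates 1, 2 and 3, and 5.86, 5.30 and 5.53 times with C3G. The mean ratio was 4.46 ± 0.862 (SD, n = 3) in controls and 5.56 ± 0.282 (SD, n = 3) in treated cells, and the groups overlapped (exact permutation p = 0.2, adjusted p = 0.900 over 6 quantities compared). The 4 binding proteins summed to 600.0, 238.1 and 281.5 FPKM in the controls and to 379.9, 250.6 and 262.7 with C3G. This sum was 34.7, 6.65 and 7.42 times *Igf1* in control replicates 1, 2 and 3, against 11.2, 5.99 and 5.95 times in the C3G replicates (exact permutation p = 0.5).

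The 3 genes whose pattern over the 6 libraries was most like that of *Igfbp6*, among 6859 genes with a mean of at least 5 FPKM, were *Bsg*, *Trim8* and *Vps51*. Their Pearson's r of log2(FPKM + 1) with *Igfbp6* was 0.9993, 0.9989 and 0.9987 in this order. *Bsg* had 588.3, 321.8 and 350.3 FPKM in the controls and 423.8, 323.6 and 331.3 with C3G, so that it too was highest in replicate 1 of each group. The GC content of the 3 transcripts was 57.6%, 59.8% and 60.6%.

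Of 48 further genes of the pathway on a written list, 37 had a row and 0 were called, beside the 0.650% of all genes. None of the 37 had an unadjusted limma p under 0.05, and 1, *Irs2*, had groups without overlap, beside 4.02% of all genes. The log2 fold change was above 0 in 26 and under 0 in 11, with a median of 0.09. Over all genes it was above 0 in 6960 and under 0 in 4274, with a median of 0.06. Among carriers and proteases 4 of 10 had a row. *Pappa2*, a protease that cuts IGFBP5, had 5.21, 12.4 and 6.62 FPKM in the controls and 6.10, 13.1 and 8.30 with C3G. Its values followed the replicate number in both groups and gave a log2 difference of 0.18 (limma p = 0.628, exact permutation p = 0.7), again 0.18 with replicates 2 and 3 only. *Pappa*, a protease that cuts IGFBP4, had a mean of 0.500 FPKM in controls and 0.542 with C3G. Of the mRNA-binding and imprinted genes 3 of 6 had a row, and *Igf2bp1*, which binds the *Igf2* mRNA, had 7.83 FPKM in controls and 7.68 in treated cells.

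Among receptors and adaptors 10 of 12 genes had a row. *Irs1*, the docking protein next to the receptor, had 9.27, 28.0 and 21.3 FPKM in the controls and 12.7, 25.5 and 24.1 with C3G, and replicate 1 was again the lowest of each group. Its log2 difference was 0.15, and 0.02 with replicates 2 and 3 only. *Irs2* was much lower, with 1.56, 1.57 and 1.59 FPKM in the controls and 1.21, 1.50 and 1.38 with C3G. On the log2 scale it differed by -0.12 (SE 0.126, limma p = 0.360, exact permutation p = 0.1), under the fold of 1.2, and by -0.08 with replicates 2 and 3 only. The adaptors *Grb2*, *Shc1* and *Grb10* had control means of 23.8 ± 9.63, 16.7 ± 1.46 and 14.0 ± 3.79 FPKM and C3G means of 24.1 ± 7.99, 18.5 ± 2.35 and 16.5 ± 1.39 (SD, n = 3 each). Their log2 differences of 0.04, 0.13 and 0.26 were 0.01, -0.03 and 0.01 with replicates 2 and 3 only, so that of *Shc1* changed sign. *Insr*, the insulin receptor, had 1.76, 2.76 and 2.66 FPKM in the controls and 2.36, 1.41 and 1.85 with C3G, a log2 difference of -0.24 (limma p = 0.267, exact permutation p = 0.3). With replicates 2 and 3 only it was -0.50 (limma p = 0.00768, adjusted p = 1.000, exact permutation p = 0.333). The difference ranged from -0.12 without C3G replicate 2 to -0.38 without control replicate 1 when single libraries were left out.

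All 20 listed genes of the PI3K, AKT and mTOR branch had a row. *Akt1* had the highest level among the pathway genes with a row, at 86.7 ± 24.7 FPKM (SD, n = 3) in controls and 72.0 ± 4.93 (SD, n = 3) with C3G. Control replicate 1 had 115.1 FPKM and the other controls 72.8 and 72.1, and the log2 difference of -0.23 was -0.06 with replicates 2 and 3 only. The regulatory subunit *Pik3r2* had 36.0 ± 18.5 and 29.9 ± 8.39 in the same order. Its control replicate 1 had 57.3 FPKM against 23.7 and 27.1, and the log2 difference of -0.18 was -0.01 with replicates 2 and 3 only. *Gsk3b*, a kinase that AKT inhibits, had 19.2 ± 4.83 and 22.9 ± 1.203, and the translation repressor *Eif4ebp1* had 20.0 ± 3.51 and 22.3 ± 4.70. *Foxo3*, a transcription factor that AKT inhibits, had 13.2 ± 2.13 and 14.4 ± 2.64. The log2 differences of *Gsk3b*, *Eif4ebp1* and *Foxo3* were 0.27, 0.14 and 0.11, and with replicates 2 and 3 only they were 0.05, 0.06 and 0.11.

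*Akt2*, a kinase of the same family as *Akt1*, had 22.6, 16.3 and 17.1 FPKM in the controls and 22.8, 9.24 and 8.68 with C3G. C3G replicate 1 was the highest library of all, whereas the other C3G libraries were the lowest. The log2 fold change was -0.55 (95% interval -1.42 to 0.32, standard error 0.366, limma p = 0.179, adjusted p = 0.992, exact permutation p = 0.4). With replicates 2 and 3 only it was -0.83 (limma p = 0.000147, exact permutation p = 0.333, adjusted p = 0.213), and without C3G replicate 1 it was -0.97 (adjusted p = 0.894). It was smaller and not called without control replicate 1 (-0.41, adjusted p = 0.992), without C3G replicate 2 (-0.36, adjusted p = 1.000) and without C3G replicate 3 (-0.32, adjusted p = 1.000). With the replicate block it was not called (limma p = 0.0533, exact permutation p within pairs 0.5).

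**Figure D4:**
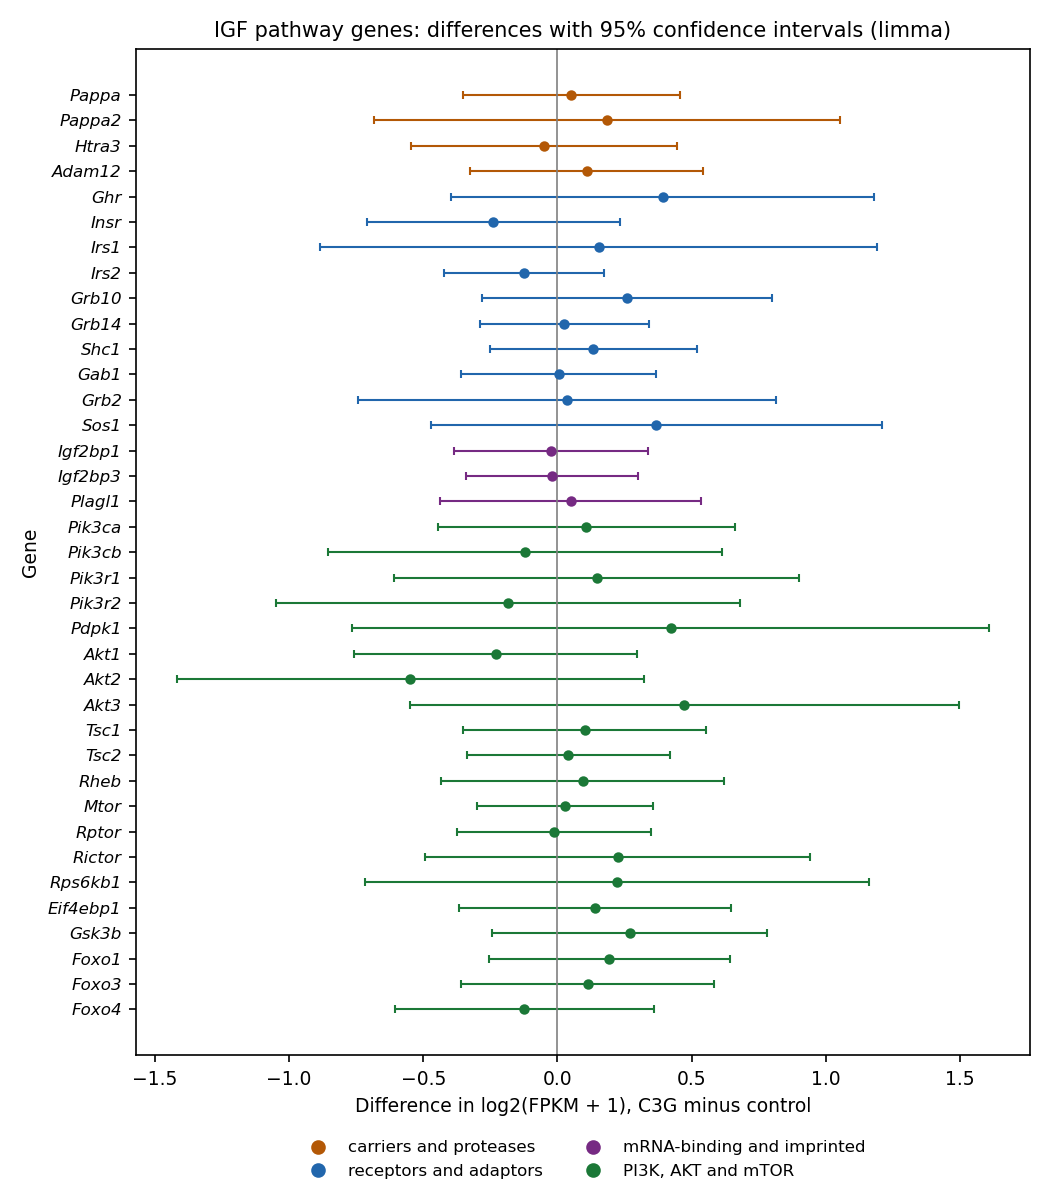
Difference in log2(FPKM + 1), C3G minus control, with limma's 95% confidence interval over all 6 libraries for the 37 pathway genes with a row, coloured by their group on the list. Every interval spans 0, and *Akt2* has the lowest value, -0.55.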

How the data were processed

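RNA of 3 control and 3 C3G cultures was sequenced from stranded libraries. The deposited values are FPKM per gene, which the authors calculated with Ballgown. The submitters' processing notes name cutadapt, HISAT2 2.1.0, StringTie and STAR 2.5.2b without their roles and list hg19, a human build, although all identifiers are mouse Ensembl genes. Depth is unknown, so no counting error is given. Every listed gene has a mean of at least 0.500 FPKM in at least 1 group. Of 11234 identifiers 11211 matched a symbol after version numbers were stripped. Positions and GC content are from GENCODE M21 (GRCm38), whose version numbers 6 of the 7 members carry.

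Groups and replicate numbers came from the sample titles. Values were fitted as log2(FPKM + 1) with limma 3.58.1 (eBayes with trend) in R 4.3.3, fitting the group alone without a filter, and p values were adjusted over all genes. A fold on this scale understates changes at low FPKM. Single values were compared with exact permutation tests (scipy 1.17.1), and all tests are two-sided. Departures of same-numbered libraries from their group means correlated at 0.653, 0.580 and 0.440 over genes, which is the source of the replicate block. Libraries with different numbers correlated at -0.640 to 0.307, with the positive values between replicates 2 and 3. Departures from a group mean cancel out within the group, so negative values arise in part from the calculation.

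The members, the pathway list and the marker lists were chosen with earlier results of these data known. All members with a row are named, with the 10 most abundant pathway genes, any called, and the 3 genes most like the most abundant member. *Pappa*, *Pappa2*, *Igf2bp1*, *Insr*, *Irs2* and *Pik3cb* were named after their values were seen. Counts and plots of the pathway list leave out 1 of its genes, which is not reported here.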

Additional observations from a re-analysis of the deposited data

How the results depend on the processing

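The log2 fold changes of the 7 members were recomputed under 15 alternatives each (a pseudocount of 0.1, a mean FPKM of at least 1, no trend, quantile normalization, median centring, the replicate block, GC correction, both together, replicates 2 and 3 only, and each library left out). In 0 of the 105 fits was a member called, and 100 kept their direction. The mean FPKM filter, the fit without trend and the replicate block leave the fold change itself as it was, so they could not turn a direction. The block added to GC correction likewise repeats the fold change of GC correction alone. The 5 reversals were *Igf1r* (-0.0765), *Igfbp4* (0.233), *Igfbp6* (0.158) and *Igfbp7* (0.0793) without control replicate 1 and *Igfbp4* (0.0171) with replicates 2 and 3 only. With each library left out, *Igf1r* ranged from -0.08 to 0.26, *Igfbp4* from -0.60 to 0.23, *Igfbp6* from -0.54 to 0.16, *Igfbp7* from -0.52 to 0.08, *Igf1* from 0.10 to 0.65, *Igfbp5* from 0.21 to 0.47 and *Igf2r* from 0.04 to 0.15. The other alternatives lay within these ranges, except for *Igf2r* with median centring (0.0135). The replicate block changed no member's call.

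The number of genes called, 73 in all, was 169 with the replicate block, 135 with GC correction, 246 with both, 191 with replicates 2 and 3 only, and 40 to 144 with each library left out, where 144 was without control replicate 1, 127 without control replicate 2, and 45, 40 and 43 without C3G replicates 1, 2 and 3. After adjustment it was 0 in every fit. Of the called genes 45 were higher and 28 lower; the split was 30 and 30 with quantile normalization, 30 and 25 with median centring, 67 and 68 with GC correction and 88 and 103 with replicates 2 and 3. Of the 37 pathway genes 2 (*Akt2* and *Insr*) were called with replicates 2 and 3 only, beside 191 of all 11234 genes. With each library left out the number was 0 to 1. That gene was *Pik3cb* without control replicate 1, beside 144 of all genes, and *Akt2* without C3G replicate 1, beside 45. Counts this small were not tested against the counts over all genes. The causes were not tested. Unknown depth and 3 libraries per group limit what could be detected.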
